A study of Mus musculus with 6 samples.

Results

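The mitochondrial chromosome of the mouse carries 37 of the 41388 genes in the deposited expression table, and these were taken by their chromosome and their GENCODE M21 symbols, which start with mt-. They are 13 protein-coding genes, 2 ribosomal RNA (rRNA) genes and 22 transfer RNA (tRNA) genes. Their expression was compared in primary hepatocytes of C57BL/6J mice, the parenchymal cells of the liver, isolated with collagenase and kept in growth medium overnight. The β-gal group (replicates 1, 2 and 3) received adenovirus encoding β galactosidase, the control protein, and the Aloxe3 group (replicates 7, 8 and 9) received adenovirus encoding ALOXE3, a lipoxygenase (n = 3 per group). Both groups carried about 1000000 viral particles per 1000000 cells for 24 h, no uninfected cells were analysed here, and nothing in the labels says whether the replicates are separate cultures or animals, so p-values measure only the spread between these libraries. RNA was selected by its poly(A) tail before single reads of 50 bases were sequenced. Values are RPKM, reads per kilobase of gene and 1000000 reads of the library. The question was whether transcripts of the mitochondrial chromosome differed between Aloxe3-overexpressing and β-gal hepatocytes.

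The library sizes derived from the RPKM values ranged from 29575553 to 32431318 reads in β-gal and from 25521908 to 30399198 in Aloxe3 hepatocytes, and a single read on 1 kb of gene gave 0.0308 to 0.0392 RPKM. Aloxe3 itself was 2.04, 2.06 and 1.74 RPKM in β-gal replicates 1, 2 and 3, and 42.3, 45.8 and 56.3 RPKM in Aloxe3 replicates 7, 8 and 9. Its log2 fold change was 4.05 (SE 0.10, adjusted p = 4.74e-06, limma), and replicate 9 was the highest. The hepatocyte markers were led by Alb (albumin, 4362 to 4552 RPKM over all libraries), while Cps1, Tat and Cyp2e1, enzymes of the adult hepatocyte, were at 0.915 to 1.64, 0.193 to 0.661 and 2.03 to 2.86 RPKM. The 5 cholangiocyte markers summed to 1509 to 1593 RPKM in β-gal libraries and to 1716, 1693 and 1577 RPKM in Aloxe3 replicates 7, 8 and 9, nearly all of it Spp1. Krt19 was at 32.9 to 51.0 RPKM, Sox9 at 38.3 to 49.3 RPKM, and Krt7 and Epcam were below 0.5 RPKM. Replicate 9 differed from its own group more than the other libraries did from theirs: over genes with at least 10 reads in a pair, the chi-square per degree of freedom was 9.18 and 10.0 between replicate 9 and replicates 7 and 8, and 3.12 to 4.99 in the other replicate pairs. Values of replicate 9 are therefore shown separately, and fold changes are also given without it where it moved them most.

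Mitochondria keep a small circular chromosome of their own, which is transcribed from both strands into long precursors. Enzymes cut these at the tRNAs that lie between the other genes and so release mRNAs, rRNAs and tRNAs. Its mRNAs encode membrane subunits of the respiratory complexes, and the rRNAs and tRNAs serve the mitochondrial ribosome that translates them, whereas every protein that transcribes, cuts or stabilises these RNAs is made from nuclear genes. Hepatocytes are rich in mitochondria. Many mitochondrial mRNAs receive a short poly(A) tail, which in some of them completes the stop codon.

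The last bases of 3 mRNAs show how the tail enters the coding sequence (GENCODE M21 transcripts, GRCm38, plus strand; capitals mark the stop codon or the base left after the last whole codon).
mt-Nd1: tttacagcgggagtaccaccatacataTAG
mt-Nd4: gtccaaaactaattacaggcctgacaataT
mt-Cytb: tcgaagacaaaatactaaaattatatccaT
These are chrM:3678-3707, chrM:11515-11544 and chrM:15259-15288. mt-Nd1 has 319 whole codons and ends in a stop codon. mt-Nd4 (459 codons), mt-Cytb (381 codons) and mt-Co3 (261 codons) leave 1 base, to which the tail adds the missing bases of the stop. Oligo-dT beads select RNA by such a tail.

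Of the 37 mitochondrial genes, 21 had reads in at least 1 library, namely 7 of 13 mRNA genes, both rRNA genes and 12 of 22 tRNA genes. The other 16 were listed at 0 in all 6 libraries. The 6 mRNA genes at 0 were mt-Co2 and mt-Co3 (complex IV, cytochrome c oxidase), mt-Atp6 and mt-Atp8 (complex V, the ATP synthase), and mt-Nd3 and mt-Nd4l (complex I, NADH dehydrogenase). They lie next to each other on the chromosome, between mt-Co1 (chrM:5328-6872) and mt-Nd4 (chrM:10167-11544). The authors counted reads that aligned to a single place in the genome. For this reason every window of 50 bases, the length of a read, inside the mitochondrial genes was searched for in the other GENCODE M21 transcripts, on both strands.

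Among the genes at 0, 5 consisted almost entirely of shared windows: 635 of 635 windows of mt-Co2, 734 of 735 of mt-Co3, 629 of 632 of mt-Atp6, 245 of 248 of mt-Nd4l and 293 of 299 of mt-Nd3. The transcripts that hold these windows are annotated pseudogenes, copies of mitochondrial DNA in the nuclear genome. Together with the copies of mt-Co1 and mt-Nd4, 7 of them lie side by side on the minus strand of chromosome 1 (chr1:24611535-24616197, GRCm38, 4663 bases). They copy the chromosome from the end of mt-Co1 to the middle of mt-Nd4. mt-Co1 and mt-Nd4 themselves shared 51.1% and 62.2% of their windows, mt-Nd2 8.19%, mt-Nd5 7.61% and mt-Rnr2 1.04% (with Gm20594, which is annotated as protein-coding), while mt-Nd1, mt-Nd6, mt-Cytb and mt-Rnr1 shared none. The sixth gene at 0, mt-Atp8 (chrM:7766-7969), shared none either. Its position corresponds to the gap of 233 bases (chr1:24614652-24614884) between the annotated copies of mt-Atp6 and mt-Co2, and what lies in this gap was not tested, since only annotated transcripts were searched and a genome sequence was not used here.

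The borders of the copy are shown by sequences from both places. At the start of the copy of mt-Co1 (Gm29216, chr1:24616138-24616197, minus strand, against chrM:6381-6440), capitals mark the bases that differ.
mt-Co1: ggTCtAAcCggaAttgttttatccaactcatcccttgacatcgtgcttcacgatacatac
Gm29216: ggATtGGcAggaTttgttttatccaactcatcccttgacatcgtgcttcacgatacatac
Counted from 1 at the first base of mt-Co1, the substitutions are T1056A, C1057T, A1059G, A1060G, C1062A and A1066T, and the 479 bases that follow to the end of mt-Co1 have none. Inside the stretch the copies of mt-Co2 (681 bases compared), mt-Atp6 (678), mt-Co3 (783), mt-Nd4l (294) and mt-Nd4 (876) have no difference. The first 50 bases of mt-Co2 (chrM:7013-7062) are therefore those of its copy Gm28661 as well.
mt-Co2: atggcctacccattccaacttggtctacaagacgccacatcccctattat
A read of this sequence fits both places equally. The single difference among the inner copies is T3C in mt-Nd3 (chrM:9459-9498 against chr1:24613080-24613119, minus strand, the base in capitals, counted from the first base of mt-Nd3).
mt-Nd3: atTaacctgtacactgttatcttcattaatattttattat
Gm28438: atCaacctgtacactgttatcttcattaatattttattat
In mt-Nd4 (chrM:11023-11062) the annotated copy stops where the capitals begin.
mt-Nd4: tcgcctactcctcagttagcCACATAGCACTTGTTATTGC

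**Figure D1:**
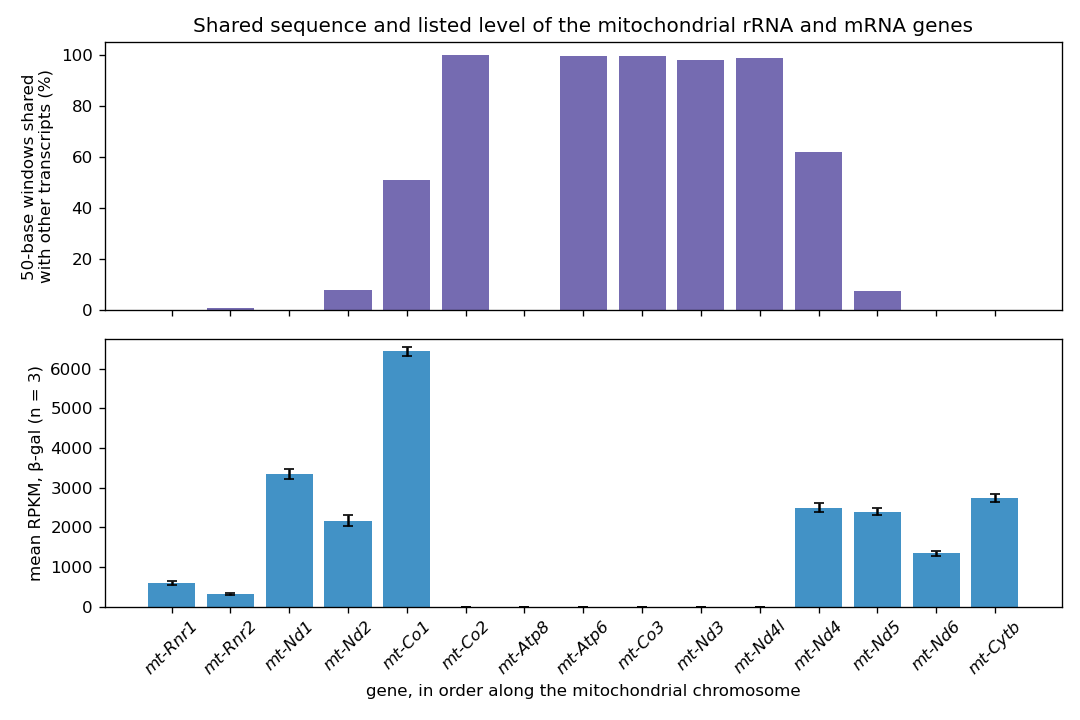
Upper bars give the percentage of 50-base windows that each mitochondrial rRNA and mRNA gene shares with other annotated transcripts, and lower bars the mean RPKM of the 3 β-gal libraries with the SD, in order along the chromosome. The 5 genes with 98.0% to 100% of their windows shared, and mt-Atp8 with 0%, have no lower bar.

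The copies themselves held few reads beside the mitochondrial mRNAs. Gm28437, the copy of mt-Co3, was at 0 in all libraries, and Gm28661, Gm10925, Gm28439, Gm29216 and Gm10222 had 0 to 5 reads each. Gm28438, the copy of mt-Nd3, had 41, 57 and 49 reads in the β-gal libraries and 42, 57 and 58 in the Aloxe3 libraries, and the groups overlapped. Gm13340 and Gm13341 on chromosome 2, which share fewer windows with mt-Co1 (411) and mt-Co2 (224), had 68 to 116 and 16 to 32 reads. Which base these reads carried at the position that differs is not part of RPKM values. For the 5 genes made almost entirely of shared windows, a listed 0 thus describes reads placed at 1 locus, not the abundance of the transcript. mt-Atp8 and the 10 tRNA genes at 0 shared no window with an annotated transcript, and why they were at 0 was not tested. No fold change is given for the 16 genes at 0.

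The 7 mRNAs with reads were among the large values of the table, and they are described by respiratory complex. Complex IV was represented by mt-Co1, its catalytic subunit, which was the highest member at 6571, 6334 and 6403 RPKM in β-gal replicates 1, 2 and 3, a mean of 6436 ± 122 (SD, n = 3). Complex I was represented by 5 of its 7 mitochondrial subunits. Of these, mt-Nd1, which lies at the junction of the membrane and matrix arms, was 3338 ± 119 RPKM. mt-Nd4, mt-Nd5 and mt-Nd2, the large subunits related to proton antiporters, were 2497 ± 121, 2389 ± 85.2 and 2166 ± 136 RPKM. mt-Nd6, the only mRNA encoded on the opposite strand, was 1343 ± 62.7 RPKM. Complex III was represented by its single mitochondrial subunit mt-Cytb, cytochrome b, at 2732 ± 97.4 RPKM, and complex V had neither of its 2 genes with reads.

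By RPKM the order was mt-Co1, mt-Nd1, mt-Cytb, mt-Nd4, mt-Nd5, mt-Nd2 and mt-Nd6. Over the β-gal libraries the values of mt-Nd4 (2399 to 2632), mt-Nd5 (2306 to 2476) and mt-Cytb (2619 to 2793) were close, with mt-Nd4 overlapping both of its neighbours, and mt-Nd5 also overlapped mt-Nd2 (2049 to 2315). RPKM divides by the whole length of the gene, including windows from which no read could be counted. As an additional scale, reads were divided by the countable windows only, those that are shared with no other transcript and touch no other mitochondrial gene. mt-Co1 has 731 of these and mt-Nd4 has 502. On this scale mt-Co1 was 13602 ± 257 reads per countable kb and 1000000 reads, 2.11 times its RPKM, and mt-Nd4 was 6854 ± 332, 2.75 times its RPKM. The other 5 mRNAs moved by 1.04 to 1.15 times. mt-Nd4 thereby went from rank 4 to rank 2, with 6586 to 7225 in its β-gal libraries against 3425 to 3667 for mt-Nd1, which ranked next. Reads that cover only the edge of a gene were also counted, so this scale is approximate. Copies outside annotated transcripts were not searched, and mt-Atp8 had 112 countable windows but 0 reads in all libraries. Such copies could change these levels and ranks.

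**Figure D2:**
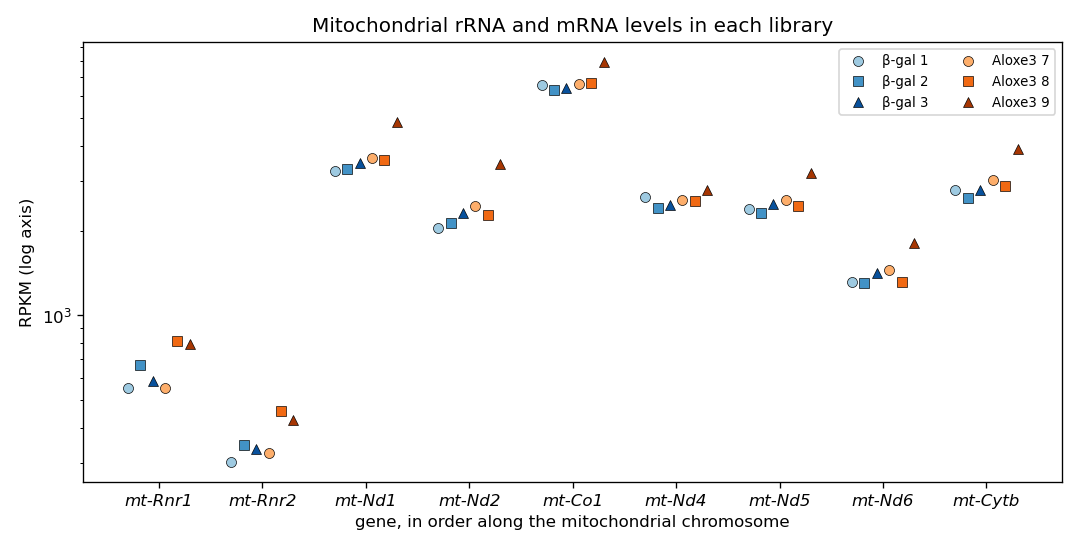
RPKM on a log axis of the 2 rRNAs and the 7 mRNAs with reads, 1 point per library (blue, β-gal replicates 1 to 3; orange, Aloxe3 replicates 7 to 9). Aloxe3 replicate 9 is the highest library for each mRNA, while the rRNAs lie below all mRNAs and are highest in Aloxe3 replicate 8.

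**Figure D3:**
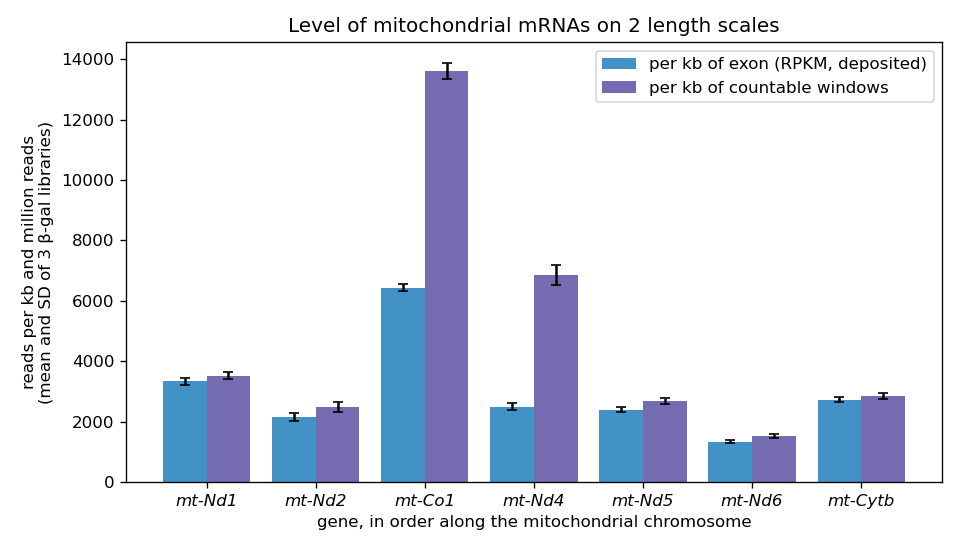
Mean and SD of the 3 β-gal libraries for each mRNA with reads, per kb of exon (RPKM, blue) and per kb of countable windows (purple). mt-Co1 and mt-Nd4 are 2.11 and 2.75 times as high on the latter scale.

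No mitochondrial gene passed the test between Aloxe3 and β-gal hepatocytes (0 of 20 tested members at an adjusted p of 0.05, limma), against 50 of 12693 genes tested, or 0.394% (0.355% higher and 0.0394% lower). At an unadjusted p under 0.05 there were 4 members (mt-Rnr2, mt-Tq, mt-Tm and mt-Te), all with a positive fold change, against 12.7% of all genes (7.31% higher and 5.42% lower), and voom in limma on derived reads called 0 members too. This count of 4 was 1 without replicate 9, 9 without replicate 8 and 1 to 7 under the other settings. The share of all genes at an unadjusted p under 0.05 was not taken in those runs. Their counts therefore show only how the number moved. The log2 fold change was above 0 in 18 of 20 members, among them 7 of 7 mRNAs (that of mt-Nd4 was 0 under quantile normalization), against 52.4% of all genes tested. The median log2 fold change was 0.19 over the 7 mRNAs and 0.0049 over all genes tested. Without replicate 9 these medians were 0.07 and 0.01, and under quantile normalization that of the mRNAs was 0.11, with mt-Co1 at 0.06 and mt-Nd5 at 0.10. In RNA of a whole culture, a different number of mitochondria, a different amount of RNA in each and a different mix of cells cannot be told apart.

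Among the complex I mRNAs, mt-Nd1 was 3243, 3301 and 3472 RPKM in the β-gal libraries and 3624, 3553 and 4866 RPKM in Aloxe3 replicates 7, 8 and 9. All Aloxe3 values lay above all β-gal values, and replicate 9 stood apart from the other two. Its log2 fold change was 0.25 (SE 0.12, adjusted p = 0.421, limma) and 0.10 without replicate 9. mt-Nd2 was 2049, 2136 and 2315 RPKM in β-gal and 2438, 2280.2 and 3447 RPKM in Aloxe3 hepatocytes. The groups overlapped, as replicate 8 was below β-gal replicate 3. Its log2 fold change of 0.31 (SE 0.14, adjusted p = 0.429, limma) was the largest of the mRNAs and was 0.12 without replicate 9.

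mt-Nd4 was 2632, 2399 and 2460 RPKM in β-gal and 2568, 2545 and 2794 RPKM in Aloxe3 hepatocytes, with overlapping groups and the smallest log2 fold change of the mRNAs (0.08, SE 0.059, adjusted p = 0.614, limma; 0.03 without replicate 9 and 0.05 without β-gal replicate 2). mt-Nd5 was 2386, 2306 and 2476 RPKM against 2575, 2437 and 3194 RPKM. Its groups overlapped (log2 fold change 0.19, SE 0.098, adjusted p = 0.478, limma; 0.07 without replicate 9). For mt-Nd6 the β-gal libraries gave 1310.0, 1303 and 1415 RPKM and the Aloxe3 libraries 1449.9, 1312 and 1801 RPKM (log2 fold change 0.17, SE 0.11, adjusted p = 0.554, limma; 0.04 without replicate 9 and 0.27 without replicate 8). Replicate 8 lay among the β-gal values. mt-Nd6 overlaps the end of mt-Nd5 on the other strand, the library protocol describes no step that marks strand, and its reads cannot be told apart from antisense RNA of that region. The ratio of mt-Nd6 to mt-Cytb was 0.492 ± 0.019 in β-gal and 0.466 ± 0.013 in Aloxe3 hepatocytes (SD, n = 3, exact two-sided permutation p = 0.2).

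In complex III, mt-Cytb was 2782, 2619 and 2793 RPKM in β-gal and 3015, 2882 and 3889 RPKM in Aloxe3 hepatocytes. The groups did not overlap (log2 fold change 0.24, SE 0.11, adjusted p = 0.407, limma), and without replicate 9 the log2 fold change was 0.11. In complex IV, mt-Co1 was 6643, 6658 and 7906 RPKM in Aloxe3 replicates 7, 8 and 9, each above the highest β-gal library (log2 fold change 0.13, SE 0.078, adjusted p = 0.528, limma; 0.05 without replicate 9). All Aloxe3 libraries were thus above all β-gal libraries for 4 members, mt-Nd1, mt-Co1, mt-Cytb and mt-Te, against 11.2% of all genes tested, and below them for 0 members against 8.71%.

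Replicate 9 was the highest of the 6 libraries in 7 of 7 mRNAs and in 13 of 20 tested members, against 19.9% of all genes tested. Its mRNAs were 112% (mt-Nd4) to 159% (mt-Nd2) of the β-gal mean, with a median of 134%. Those of replicate 7 were 103% to 113%, with a median of 108%, and those of replicate 8 were 97.7% to 106%, with a median of 103%. The β-gal libraries themselves ran from 94.6% to 107%. The excess of replicate 9 over the β-gal mean was therefore unequal among mRNAs: mt-Nd1 was at 146%, mt-Cytb at 142%, mt-Nd6 and mt-Nd5 at 134% and mt-Co1 at 123%.

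**Figure D4:**
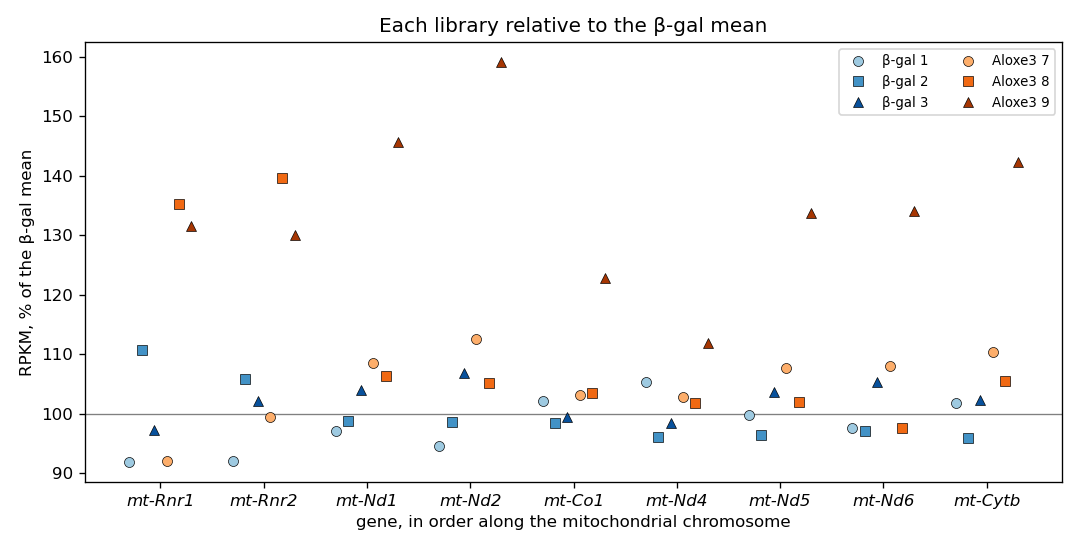
RPKM of each library as a percentage of the β-gal mean of the same gene (grey line, 100%), for the 2 rRNAs and the 7 mRNAs with reads. Aloxe3 replicate 9 lies between 112% and 159% in the mRNAs, replicates 7 and 8 lie between 97.7% and 113%, and in the rRNAs replicates 8 and 9 both lie at or above 130%.

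The rRNAs followed another order of libraries. mt-Rnr1, the RNA of the small mitochondrial ribosomal subunit, was 551, 665 and 584 RPKM in β-gal and 552, 812 and 790 RPKM in Aloxe3 hepatocytes. Replicate 7 lay at the lower end of the β-gal values while replicates 8 and 9 were above all of them (log2 fold change 0.24, SE 0.15, adjusted p = 0.532, limma). mt-Rnr2, the RNA of the large subunit, was 302, 347 and 335 RPKM against 326, 458 and 426 RPKM, and replicate 7 lay among the β-gal values while replicates 8 and 9 were above all of them (log2 fold change 0.29, SE 0.12, adjusted p = 0.389, limma). Without replicate 7, 8 or 9 in turn the log2 fold change of mt-Rnr1 was 0.42, 0.14 or 0.16, and that of mt-Rnr2 was 0.43, 0.19 or 0.24. The ratio of mt-Rnr1 to mt-Rnr2 was 1.83 ± 0.087 in β-gal and 1.77 ± 0.080 in Aloxe3 hepatocytes (SD, n = 3, exact two-sided permutation p = 0.5). In living mitochondria the rRNAs are abundant and have very short tails, so their level after poly(A) selection is a level of selected RNA.

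RNAs that carry no long poly(A) tail were looked at as a limited measure of what passed the selection. The 9 nuclear RNAs of this kind in the table (such as Rn7sk, Rpph1, Rmrp and Terc) summed to 5.95, 7.55 and 8.21 RPKM in β-gal and 6.29, 8.71 and 13.7 RPKM in Aloxe3 replicates 7, 8 and 9. Rpph1, the RNA of nuclear ribonuclease P, was 2.23, 4.06 and 3.50 RPKM against 3.81, 3.30 and 7.35 RPKM. Replicate 9 had the highest sum, and replicate 8 (8.71 RPKM) lay near β-gal replicate 3 (8.21 RPKM). No single value of these RNAs exceeded 7.35 RPKM, and Rn7s1 was at 0 in all libraries. How far their reads could be placed at a single locus was not examined. Whether what passed the selection had a part in the mitochondrial values was not tested.

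The tRNA genes held 645 to 881 reads per library together, and a transcript of 59 to 75 bases is scarcely longer than a read. The highest was mt-Tc (cysteine, chrM:5192-5257, minus strand), whose sequence is shown with its anticodon in capitals beside that of mt-Tm (methionine, chrM:3845-3913, plus strand), which lies directly before mt-Nd2.
mt-Tc: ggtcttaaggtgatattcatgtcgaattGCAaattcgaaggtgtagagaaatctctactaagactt
mt-Tm: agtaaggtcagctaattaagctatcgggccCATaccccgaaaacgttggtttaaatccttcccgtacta
A read that touches a neighbouring gene is ambiguous and was not counted. The start positions below disregard strand, because it is not known whether counting used it. As for mt-Nd6, reads of tRNA genes on the minus strand cannot be told apart from RNA of the other strand. For mt-Tm, of 118 positions at which a read could start and touch the gene, 22 touch no other mitochondrial gene. For mt-Tc, which borders on unannotated sequence, 51 of 115 do, and for mt-Tp, next to the control region, 67 of 116 do. Levels of tRNA genes therefore compare libraries, not genes.

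mt-Tc was 154, 195 and 195 RPKM in β-gal and 188, 221 and 192 RPKM in Aloxe3 hepatocytes (317 to 444 reads, log2 fold change 0.15, SE 0.10, adjusted p = 0.574, limma), and its log2 fold change was 0.04 without β-gal replicate 1 and 0.08 without replicate 8. mt-Ta (alanine) was 52.6, 52.7 and 51.9 RPKM against 45.4, 64.4 and 69.1 RPKM (log2 fold change 0.16). Without replicate 7 its log2 fold change was 0.34 (adjusted p = 0.0786, limma), and without replicates 8 and 9 it was 0.10 and 0.04. mt-Tm was 47.6, 34.4 and 43.1 RPKM against 50.5, 46.2 and 55.4 RPKM (77 to 106 reads, log2 fold change 0.28, SE 0.12, adjusted p = 0.367, limma; 0.16 without β-gal replicate 2). The groups overlapped in all of these, with replicate 7 of mt-Ta below and replicates 8 and 9 above the β-gal libraries. mt-Te (glutamate, chrM:14071-14139, between mt-Nd6 and mt-Cytb) was 6.74, 8.94 and 8.33 RPKM in β-gal and 14.2, 10.5 and 9.87 RPKM in Aloxe3 hepatocytes. Its groups did not overlap, and replicate 7 was highest. It had the largest log2 fold change among members with at least 15 reads in each library (0.47, SE 0.14) and the lowest adjusted p of all members (0.269, limma). The log2 fold change was 0.56 without replicate 9, 0.32 without replicate 7 and 0.36 without β-gal replicate 1. These values rest on 15 to 25 reads per library.

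mt-Tq (glutamine) was 16.6, 12.6 and 11.4 RPKM against 16.6, 15.3 and 18.1 RPKM (log2 fold change 0.29, SE 0.12, adjusted p = 0.386, limma; 0.19 without β-gal replicate 3). mt-Tl1 and mt-Tl2, both for leucine, were the only tested members with a negative log2 fold change (-0.14 and -0.40), with overlapping groups. That of mt-Tl1 was 0.21 without replicate 7 and -0.40 without replicate 9, and that of mt-Tl2 was -0.82 without β-gal replicate 1 and -0.09 without replicate 9. mt-Tp (proline) had 0.10, mt-Tn (asparagine) 0.61 on 6 to 24 reads, mt-Ts2 (serine) 0.48 on 4 to 15 reads and mt-Ti (isoleucine) 0.08 on 1 to 3 reads. With 1 library left out in turn the log2 fold change ran from -0.0037 to 0.23 in mt-Tp (lowest without β-gal replicate 1), from 0.25 to 1.00 in mt-Tn (lowest without β-gal replicate 1), from 0.17 to 0.98 in mt-Ts2 (lowest without β-gal replicate 1) and from -0.12 to 0.31 in mt-Ti (lowest without replicate 9), so 1 library decided these values. Without replicate 9 that of mt-Tn was 0.31 and that of mt-Tp 0.05. mt-Tv (valine) had 1 read in each of 2 libraries and was not tested. The 10 tRNA genes at 0 were mt-Tf, mt-Tw, mt-Ty, mt-Ts1, mt-Td, mt-Tk, mt-Tg, mt-Tr, mt-Th and mt-Tt. Of these, mt-Ts1, mt-Td, mt-Tk, mt-Tg and mt-Tr lie between the end of mt-Co1 and the start of mt-Nd4, and no tRNA gene of that stretch had a read.

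Counted reads of mitochondrial genes made up 2.83%, 2.76% and 2.86% of the β-gal libraries and 2.98%, 2.95% and 3.70% of Aloxe3 replicates 7, 8 and 9. Of the 13 mRNA genes 6 were at 0, and mt-Co1 and mt-Nd4 shared 51.1% and 62.2% of their windows. These shares therefore cover reads placed at a single locus, not all mitochondrial RNA. The widest 95% Wilson interval, that of replicate 9, ran from 3.69% to 3.70% and covers counting error only. The means were 2.81% ± 0.052 and 3.21% ± 0.42 (SD, n = 3), a ratio of 1.14, and the groups did not overlap (exact two-sided permutation p = 0.1, the smallest that 3 against 3 libraries allow). Without replicate 9 the difference between the means was 0.152 percentage points in place of 0.396. The mRNA genes alone made up 2.70% ± 0.059 and 3.07% ± 0.42, again without overlap (exact permutation p = 0.1), and their difference was 0.133 percentage points without replicate 9 in place of 0.372. The rRNA genes made up 0.109% ± 0.0090 and 0.132% ± 0.025, and the tRNA genes 0.0025% ± 0.00017 and 0.0028% ± 0.00022, both with overlap (exact permutation p = 0.3 each).

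**Figure D5:**
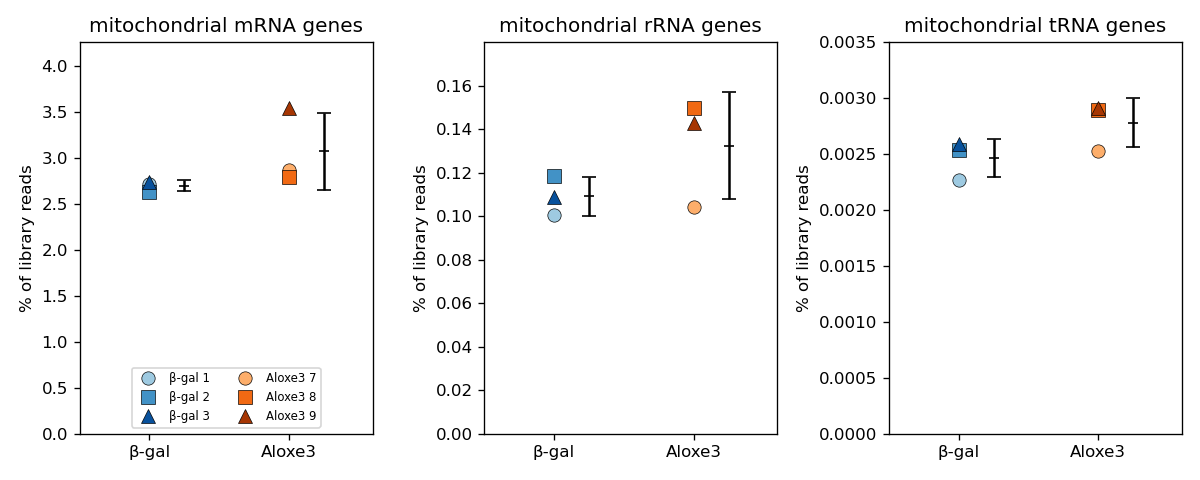
Percentage of library reads counted in mitochondrial mRNA, rRNA and tRNA genes, 1 point per library, with the mean and SD of each group (n = 3) beside the points. Of the 13 mRNA genes 6 were at 0. For the mRNA genes replicate 9 lies at 3.55%, the other Aloxe3 libraries at 2.87% and 2.80%, and the β-gal libraries at 2.63% to 2.75%.

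Within the mitochondrial mRNA reads, each gene's share was compared to see whether the mRNAs kept their proportions. mt-Co1 took 36.8% ± 0.69 of these reads in β-gal and 35.6% ± 1.2 in Aloxe3 hepatocytes (SD, n = 3), and it was lowest in replicate 9 at 34.4%. mt-Nd4 took 12.7% ± 0.52 and 11.9% ± 0.92, and was also lowest in replicate 9 at 10.8%. mt-Nd2 took 8.33% ± 0.48 and 9.12% ± 0.85, with 10.1% in replicate 9. mt-Cytb took 11.6% ± 0.17 and 12.1% ± 0.38, and its groups alone did not overlap. No share passed the test (exact permutation p = 0.1 to 1, adjusted p = 0.28 to 1 over the 7 mRNAs), and 3 against 3 libraries cannot give a p below 0.1. The shares of mt-Nd1 (11.8% and 12.5%), mt-Nd5 (16.1% and 16.2%) and mt-Nd6 (2.58% and 2.56%) overlapped as well. Without replicate 9 the Aloxe3 minus β-gal difference was -0.562 in place of -1.18 percentage points for mt-Co1, -0.309 in place of -0.838 for mt-Nd4 and 0.312 in place of 0.790 for mt-Nd2. It was 0.288 in place of 0.620 for mt-Nd1 and 0.331 in place of 0.541 for mt-Cytb, and with 1 library left out in turn it ran from -0.0074 to 0.255 for mt-Nd5 and from -0.059 to 0.047 for mt-Nd6. Among reads of the mRNAs other than mt-Co1, the difference was -1.66 percentage points for mt-Nd4 and -0.332 for mt-Nd5. mt-Co1 and mt-Nd4, the mRNAs with the smallest excess in replicate 9, are those that share over 50% of their windows with nuclear copies, and the part of these copies in the unequal values was not tested.

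The nuclear genes that act on the mitochondrial chromosome were counted in 4 hand-written lists. Twnk is in both the transcription and the replication list and was counted in each. None of the 11 tested genes for transcription, 27 for RNA processing and stability, 14 for DNA replication and 22 for charging of mitochondrial tRNAs passed the test (limma, adjusted p from 0.254 to 0.998), against 0.394% of all genes. At an unadjusted p under 0.05 they held 1, 2, 1 and 1 genes, against 12.7% of all genes, and voom in limma called 0 of them as well. Their median log2 fold changes were 0.03, -0.02, -0.03 and -0.03.

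Polrmt, the RNA polymerase of mitochondria, was 14.9, 15.2 and 14.9 RPKM in β-gal and 15.0, 14.5 and 13.8 RPKM in Aloxe3 hepatocytes (log2 fold change -0.06, SE 0.040, adjusted p = 0.588, limma). Tfam, which packages the chromosome and opens its promoters, was 7.84 ± 0.36 and 8.14 ± 0.39 RPKM (adjusted p = 0.727, limma). Tfb2m, the initiation factor, and Tefm, the elongation factor, had log2 fold changes of 0.03 and -0.04. The smallest p of this list belonged to Tfb1m, which methylates the small rRNA, at 2.48, 2.81 and 2.80 RPKM against 3.45, 3.50 and 2.94 RPKM. Its groups did not overlap (log2 fold change 0.22, SE 0.069, adjusted p = 0.291, limma), and Mrpl12 (0.10) and Twnk (-0.10) came next. In this list 2 of 11 genes lay above β-gal in all Aloxe3 libraries, against 11.2% of all genes tested, and 0 lay below, against 8.71%. Without replicate 9 the log2 fold changes of Polrmt, Mrpl12 and Twnk were -0.03, 0.04 and -0.06, that of Tfam was 0.08 in place of 0.05, and those of Tfb2m and Tefm turned to -0.0099 and 0.02.

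Lrpprc and Slirp, which together stabilise mitochondrial mRNAs, had log2 fold changes of 0.04 and -0.02, and Mtpap, the mitochondrial poly(A) polymerase, had 0.10 (5.06, 4.59 and 4.43 RPKM in β-gal against 5.37, 4.90 and 5.04 RPKM in Aloxe3 hepatocytes, adjusted p = 0.507, limma). Without replicate 9 the log2 fold changes of Lrpprc and Slirp were 0.09 and 0.08. Ptcd2, which is needed for maturation of the cytochrome b mRNA, was 19.5 ± 0.47 RPKM in β-gal and 17.5 ± 0.71 RPKM in Aloxe3 hepatocytes. All its Aloxe3 libraries were below all β-gal libraries (log2 fold change -0.15, SE 0.041, adjusted p = 0.254, limma). Rexo2, an exonuclease that degrades short RNA, and Fastk, a regulator of mt-Nd6 RNA, had -0.09 and -0.07 and did not overlap between groups either. In this list 4 of 27 genes lay below β-gal in all Aloxe3 libraries, against 8.71% of all genes tested. In the other direction there were 0, against 11.2%. For replication, Polg (the DNA polymerase), Twnk (the helicase) and Ssbp1 (the single-strand binding protein) had log2 fold changes of -0.05, -0.10 and -0.01. Mgme1, Rnaseh1 and Slc25a33 had the smallest p of that list, with 0.14, -0.19 and -0.16 (adjusted p = 0.371, 0.396 and 0.421, limma). Without replicate 9 the log2 fold changes of Rnaseh1 and Slc25a33 were -0.10 each, that of Polg was -0.02 and that of Ssbp1 was -0.07. Among the genes for tRNA charging these were the synthetases Kars (-0.09) and Pars2 (0.10), and Qrsl1 (-0.11), a subunit of the amidotransferase that completes the charging of the glutamine tRNA and had -0.05 without replicate 9.

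Replicate 9 was the lowest of the 6 libraries in 2 of 11 genes for transcription, 17 of 27 for RNA processing and stability, 8 of 14 for replication and 11 of 22 for tRNA charging, against 30% of all genes tested. It was the highest in 4, 2, 2 and 2 genes of these lists, against 19.9% of all genes tested. Among markers of other liver cells, the 6 Kupffer cell markers summed to 150 to 152 RPKM in β-gal and 132 to 145 in Aloxe3 libraries, mainly Cd68, with Clec4f, Vsig4 and Timd4 near 0. The 5 endothelial markers summed to 10.4 to 12.3 and 10.3 to 11.9 RPKM, and the 5 stellate markers to 2.48 to 2.79 and 2.35 to 2.70 RPKM with Lrat at 0. The hepatocyte markers summed to 4947 to 4995 and 4776 to 4922 RPKM, lowest in replicate 9 and mostly Alb. Among the other hepatocyte markers, Ttr (transthyretin) was lower in Aloxe3 hepatocytes (124 ± 6.5 and 100.5 ± 1.1 RPKM, log2 fold change -0.30, SE 0.043, adjusted p = 0.0448, limma). Its log2 fold change stayed between -0.33 and -0.26, but its adjusted p was 0.0802 to 0.148 with any 1 library left out, 0.0839 with eBayes without trend, 0.164 without a filter and 0.0674 under quantile normalization (limma). Apoa1 (243 ± 2.9 and 227 ± 8.5 RPKM, adjusted p = 0.349, limma) and Serpina1a (52.2 ± 1.1 and 48.3 ± 0.31 RPKM, adjusted p = 0.262, limma) lay below β-gal in all Aloxe3 libraries. Cps1 lay above in all of them (0.985 ± 0.069 and 1.496 ± 0.18 RPKM, adjusted p = 0.161, limma). Of the 7 tested hepatocyte markers, 3 thus lay below in all Aloxe3 libraries and 1 above, against 8.71% and 11.2% of all genes tested. Tat, which was not tested, also lay above β-gal in all Aloxe3 libraries (0.278 ± 0.078 and 0.578 ± 0.12 RPKM). Alb, Cyp2e1 and Hnf4a overlapped between the groups. The part of the marker levels in the mitochondrial values was not tested.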

How the data were processed

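Groups were taken from the sample labels. The authors aligned reads with STAR 2.0.4b to GRCm38.p2, assigned reads with a single alignment and a single gene by featureCounts 1.4.5, and deposited RPKM values, which were used without further normalization. How counts became RPKM, and whether counting used strand, is not given in the sources used here. The step of 1 read in the RPKM values gave each library's size. Reads per gene were RPKM times the GENCODE M21 exon length, which gave whole reads within 0.05 in all libraries for 16813 genes, including the mitochondrial genes. Of the table's gene identifiers 40254 matched GENCODE M21 and 1134 did not.

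After a filter that kept 12693 genes averaging 0.5 RPKM or more, log2(RPKM + 1) values entered a two-sided moderated test (limma 3.58.1, R 4.3.3; eBayes with a variance trend; Benjamini-Hochberg adjustment at 0.05). Fold changes on this scale understate those of low genes. Shares and ratios were compared with exact permutation tests over libraries (scipy 1.17.1). Windows of 50 bases were searched in GENCODE M21 transcripts because the genome search planned was not possible. The scripts were tested on simulated data.

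The members, lists and tests were chosen with earlier results of these data known. Named were all mitochondrial genes, Aloxe3, in each nuclear list the 3 genes with the smallest p and fixed genes of transcription, RNA stability and replication, the nuclear copies, and cell type markers. RNAs without a poly(A) tail named in the text were chosen after their values were seen. Alternatives were other pseudocounts, filters and scalings, eBayes without trend, voom, another denominator, and each library left out.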

Additional observations from a re-analysis of the deposited data

How the results depend on the processing

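No member and no gene of the 4 nuclear lists passed the threshold under any alternative run: pseudocount 0.1, no filter, a filter at 5 RPKM, quantile normalization, rescaling to a common median or to reads outside the mitochondrial chromosome, eBayes without trend, voom, and each library left out. The lowest adjusted p of a member ranged from 0.0786 (without Aloxe3 replicate 7) to 0.497 (limma). The count of all genes called, 50, was 7 of 24989 without a filter and 79 of 7166 with voom, and ranged from 6 to 19 with 1 library left out; the cause was not tested. The log2 fold change turned in mt-Tp (-0.0037 without β-gal replicate 1, up to 0.23 with other libraries left out), mt-Tl1 (-0.40 to 0.21, without Aloxe3 replicates 9 and 7) and mt-Ti (-0.12 without Aloxe3 replicate 9, up to 0.31), all on few reads, and that of mt-Nd4 was 0 under quantile normalization. With only genes that share under 10% of their windows, an alternative added after seeing the data, the mitochondrial share differed by 0.279 percentage points, a ratio of 1.19. Counting windows found once in the genome was not run. No paired analysis was possible because the groups share no replicate numbers.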
